A study of Mus musculus with 70 samples.

Results

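The aryl hydrocarbon receptor (AhR) and 6 genes tied to it were followed in the lungs of mice exposed to 13 chemicals: the receptor gene Ahr, its partner Arnt, and the target genes Cyp1a1, Cyp1a2, Cyp1b1, Ahrr and Tiparp. These 7 genes were chosen by symbol, and 16 probe sets of the array carried one of those symbols in the platform's annotation. Each gene was read from its probe set with the highest mean over 70 arrays, among 18193 genes named on the array. Of the 7 genes, 6 lay above the filter on dim probe sets (a mean above 4.25 on the log2 scale) and entered the tests with 14593 genes in all, while Ahrr, with a mean of 3.39, did not.

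All animals were female B6C3F1 mice, a cross of inbred strains, 18 weeks of age after 13 weeks of exposure, and 1 array was run on the right lung lobe of each. Each animal's identifier starts with 1 or 2, here called set 1 and set 2; the labels do not say what divides them. In set 1, 3 mice per group were fed 1,5-naphthalenediamine at 2000 ppm, pentachloronitrobenzene at 8187 ppm, N-(1-naphthyl)ethylenediamine dihydrochloride at 2000 ppm or plain diet (feed controls), and 3 mice per group received 2,3-benzofuran at 240 mg/kg or corn oil alone by gavage. In set 2, groups of 4 were fed 2,2-bis(bromomethyl)-1,3-propanediol at 1250 ppm, 4-nitroanthranilic acid at 10000 ppm, malathion at 16000 ppm, diazinon at 200 ppm or plain diet. Gavage groups of 4 in set 2 received coumarin at 200 mg/kg, 1,2-dibromoethane at 62 mg/kg or benzene at 100 mg/kg in corn oil, against 8 corn oil controls. N-Methylolacrylamide at 50 mg/kg and 2-chloromethylpyridine hydrochloride at 250 mg/kg were given in water to 4 mice each, against 4 water controls. Feed was given on 7 days a week and gavage (5 ml/kg) on 5. In the labels, 7 chemicals are lung tumour positives and 6 are negatives. Each dose was a single one, so no dose response can be read. Chemicals that share a vehicle and set share their control animals.

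The AhR is a ligand-activated transcription factor that waits in the cytoplasm with heat shock protein 90 and other chaperones. Planar aromatic ligands, dioxin being the best known, send it to the nucleus, where it pairs with ARNT and binds a short DNA element in front of its target genes. Cyp1a1, Cyp1a2 and Cyp1b1 are monooxygenases that oxidise polycyclic aromatic compounds and aryl amines, Ahrr is a repressor that competes with the receptor, and Tiparp is a mono-ADP-ribosyltransferase that marks the receptor and lowers its activity. In lung, induction of Cyp1a1 is the usual readout of the pathway, while Cyp1a2 is foremost an enzyme of liver.

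The sequences in front of 4 of the targets are shown because the core of the element that AhR and ARNT bind, GCGTG, can be looked for in them. They are the 250 bases upstream of the gene start in RefSeq (build GRCm38.p6), read 5′ to 3′ on the gene's strand, and capitals mark GCGTG on the strand shown or CACGC where GCGTG lies on the other strand. Cyp1a1 lies on the plus strand (chr9:57697363-57697612), and Cyp1a2 (chr9:57683656-57683905), Cyp1b1 (chr17:79715062-79715311) and Ahrr (chr13:74292332-74292581) on the minus strand.
Cyp1a1: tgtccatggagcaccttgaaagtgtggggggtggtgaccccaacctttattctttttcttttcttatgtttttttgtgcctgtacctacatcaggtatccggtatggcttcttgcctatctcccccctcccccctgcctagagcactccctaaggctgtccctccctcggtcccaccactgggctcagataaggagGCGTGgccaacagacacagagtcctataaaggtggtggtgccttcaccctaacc
Cyp1b1: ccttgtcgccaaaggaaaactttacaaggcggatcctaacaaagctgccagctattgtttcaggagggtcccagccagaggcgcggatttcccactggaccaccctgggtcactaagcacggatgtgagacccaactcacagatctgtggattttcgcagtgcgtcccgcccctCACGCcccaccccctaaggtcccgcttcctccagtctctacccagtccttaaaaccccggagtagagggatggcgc
Cyp1a2: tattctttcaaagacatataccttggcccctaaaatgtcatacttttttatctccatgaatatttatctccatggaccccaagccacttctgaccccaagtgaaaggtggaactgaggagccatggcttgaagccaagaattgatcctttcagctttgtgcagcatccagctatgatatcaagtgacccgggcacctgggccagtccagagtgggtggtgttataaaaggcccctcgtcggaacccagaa
Ahrr: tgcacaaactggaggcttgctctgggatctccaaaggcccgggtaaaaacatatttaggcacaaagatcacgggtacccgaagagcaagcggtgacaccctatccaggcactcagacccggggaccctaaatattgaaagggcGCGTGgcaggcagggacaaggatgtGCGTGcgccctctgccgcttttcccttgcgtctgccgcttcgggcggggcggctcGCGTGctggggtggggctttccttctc
Of 6 genes with an entry, 5 held GCGTG in this window, and the window of Cyp1a2 held none, which says only that these letters are not in these 250 bases. GCGTG was found once in the window of Cyp1a1, at positions -54 to -50 from the start, once in that of Cyp1b1 on the other strand, at -76 to -72, and 3 times in that of Ahrr. Tiparp and Arnt held it once each. The longer TNGCGTG, which contains GCGTG, was found in Ahrr alone of the 6. Of 32851 windows of the same length in the table, searched on both strands, 28.2% held GCGTG and 4.1% held TNGCGTG. A match is a description of the letters and not a site of binding. Ahr had no entry.

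Library quality was even with few exceptions. Array medians lay between 5.41 and 5.52 on the log2 scale. The control probe sets of Actb and Gapdh gave a 3′ minus 5′ difference, which grows as RNA breaks down, and it ran from 0.083 to 0.523 on all arrays but 1, animal 2-56 of the 1,2-dibromoethane group, at 0.989. Lung identity was clear: Sftpc, the alveolar type II marker, lay between 14.23 and 14.45 on all 70 arrays and Scgb1a1, the club cell marker, between 13.95 and 14.37. Hepatocyte transcripts varied widely between animals, Alb from 5.02 to 12.28, and they bear on Cyp1a2 below. In bulk lung, a change in the number of cells of a type and a change in RNA per cell cannot be told apart. Log2 changes given with ± are limma estimates with their standard error, a gene was called at an adjusted p under 0.05 (Benjamini-Hochberg over the 14593 genes of a comparison), and the tests measure the spread between animals.

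Cyp1a1 was the member that answered most. With 1,5-naphthalenediamine the log2 signal was 11.45, 11.79 and 11.93 in the 3 treated mice and 5.15, 5.18 and 6.69 in the 3 feed controls of set 1. The lowest treated animal stood far above the highest control. The mean rose by 6.05 ± 0.42 log2 units (95% interval 5.21 to 6.89; limma adjusted p = 1.88e-16), a 66.3-fold rise on the scale of the probe set signal.
Cyp1a1 rose with the other chemicals fed in set 1 as well. With pentachloronitrobenzene the values were 8.84, 9.15 and 9.76, and the rise was 3.58 ± 0.42 (95% interval 2.74 to 4.42; limma adjusted p = 1.43e-07), or 11.9-fold. With N-(1-naphthyl)ethylenediamine dihydrochloride they were 8.63, 8.87 and 9.03, and the rise was 3.17 ± 0.42 (95% interval 2.33 to 4.01; limma adjusted p = 5.78e-06), or 8.99-fold. All 6 of these animals lay above all 3 controls, and all 6 lay below the 3 mice given 1,5-naphthalenediamine. Control 1-29, at 6.69, was the highest of the 3 controls, and leaving out each animal in turn moved the 3 rises only within 5.79 to 6.56, 3.32 to 4.09 and 2.91 to 3.68, all still called.

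**Figure D1:**
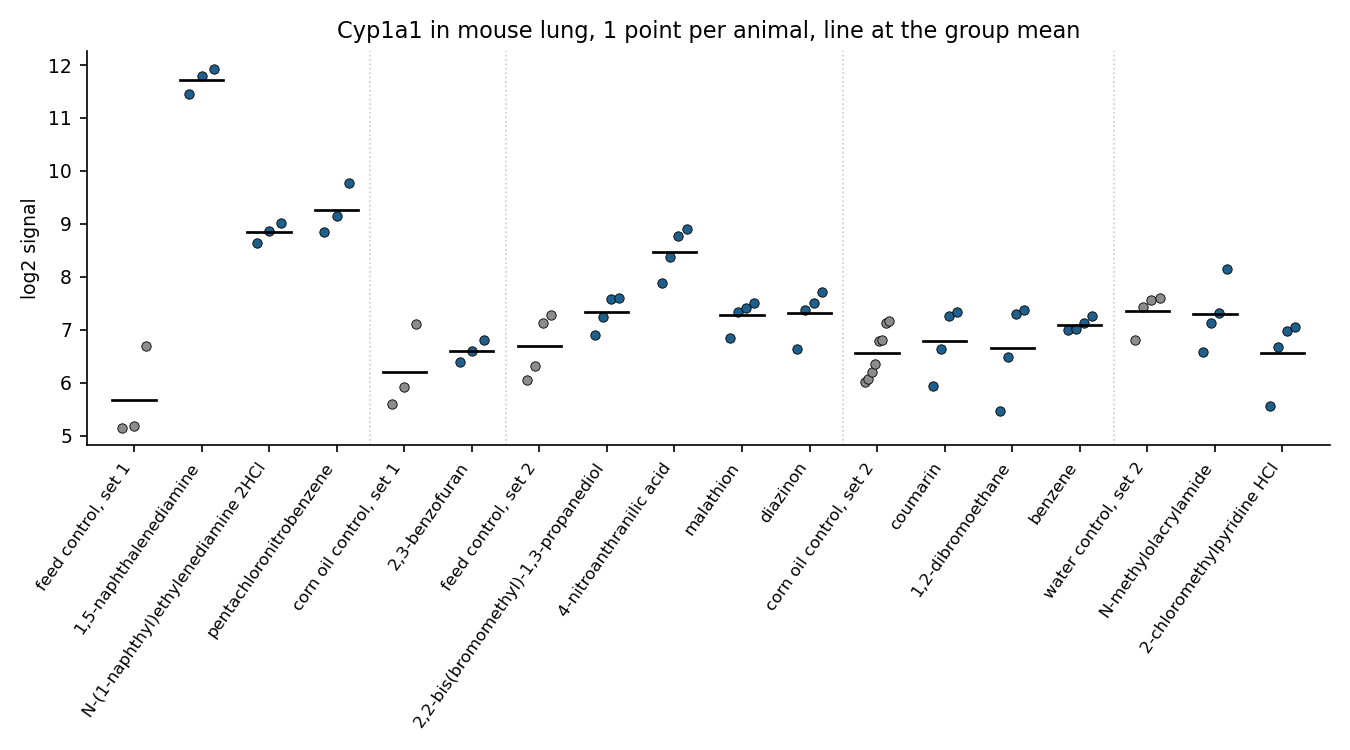
Log2 signal of Cyp1a1 in each of 70 animals by group, treated in blue and controls in grey, with a line at the group mean and dotted lines between vehicles and sets. The 3 mice fed 1,5-naphthalenediamine sit between 11.45 and 11.93, and no other animal passes 9.76.

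The first and the last of these chemicals are naphthalene amines given at the same dose in ppm. 1,5-Naphthalenediamine carries an amino group on each ring of naphthalene, and N-(1-naphthyl)ethylenediamine carries on one ring an amine with an aminoethyl chain, given as the dihydrochloride. Cyp1a1 was higher with the diamine by 2.88 ± 0.42 log2 units (95% interval 2.04 to 3.72; limma adjusted p = 2.03e-06). It was also higher with 1,5-naphthalenediamine than with pentachloronitrobenzene, by 2.47 ± 0.42 (95% interval 1.63 to 3.31; adjusted p = 7.93e-05), at 2000 against 8187 ppm. Between pentachloronitrobenzene and N-(1-naphthyl)ethylenediamine dihydrochloride the difference was 0.41 log2 units (95% interval -0.43 to 1.25; adjusted p = 0.999), an interval that allows either to be the higher one. Of the 6 members tested, Cyp1a1 and Cyp1b1 were called in the first of these contrasts and in the second (1.67% and 0.973% of all genes), and none in the third (0%, with 471 genes at an unadjusted p under 0.05 by limma).

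The order of Cyp1a1 over the 18 groups placed 4-nitroanthranilic acid next. Its 4 mice had 7.88, 8.36, 8.77 and 8.90, against 6.06, 6.32, 7.13 and 7.28 in the feed controls of set 2. All treated animals lay above all controls, as was so for 3.21% of all genes in this comparison. The mean was higher by 1.78 ± 0.36 (95% interval 1.05 to 2.51), 3.44-fold, with an unadjusted limma p of 8.39e-06, but the adjusted p of 0.122 did not pass. The adjusted p was 0.102 to 0.606 over the other planned settings and 0.065 to 1 with each animal left out in turn, when the change was 1.57 to 1.98. With the 3′ minus 5′ difference of each array as a covariate, an alternative chosen after the data were seen, the change was 1.88 and was called (adjusted p = 0.0415), and this difference ran from 0.162 to 0.238 in the treated mice and from 0.205 to 0.393 in their controls.
Against the other chemicals fed in set 2, Cyp1a1 was higher with 4-nitroanthranilic acid by 1.14 (against 2,2-bis(bromomethyl)-1,3-propanediol), 1.20 (against malathion) and 1.17 (against diazinon), and none of these passed (adjusted p = 0.57, 0.0758 and 0.827).

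The other 9 chemicals moved Cyp1a1 by no more than 0.79 log2 units in either direction, and none was called. The largest rises among them were 0.64 ± 0.36 with 2,2-bis(bromomethyl)-1,3-propanediol, 0.61 ± 0.36 with diazinon and 0.58 ± 0.36 with malathion. The largest fall was with 2-chloromethylpyridine hydrochloride, whose 4 mice had 5.55, 6.66, 6.97 and 7.06 against 6.80, 7.44, 7.56 and 7.59 in the water controls (-0.79 ± 0.36; unadjusted p = 0.0343, adjusted p = 0.394). Benzene gave 0.53 ± 0.31, and coumarin, 2,3-benzofuran and 1,2-dibromoethane 0.22, 0.40 and 0.09. The 95% intervals of these 9 chemicals reached at most 1.36 log2 units above their controls.
From the highest group mean down, 1,5-naphthalenediamine (11.73) did not overlap with pentachloronitrobenzene (9.25), which overlapped with N-(1-naphthyl)ethylenediamine dihydrochloride (8.84), and that with 4-nitroanthranilic acid (8.48). The next group, the water controls of set 2 (7.35), did not overlap with 4-nitroanthranilic acid. From there to the feed controls of set 1 (5.68) each group overlapped with its neighbour.

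The rise with 1,5-naphthalenediamine was tested against that with each other chemical, each relative to its own controls. For Cyp1a1 the difference was called in all 12 of these tests, from 2.47 log2 units (pentachloronitrobenzene) to 6.84 (2-chloromethylpyridine hydrochloride). It was 4.27 ± 0.56 against 4-nitroanthranilic acid (adjusted p = 4.83e-07) and 5.65 ± 0.59 against 2,3-benzofuran (adjusted p = 3.3e-09). For 1,5-naphthalenediamine and 4-nitroanthranilic acid the treated means were 11.73 and 8.48, and those of their feed controls 5.68 and 6.70. The mean of 5.68 is the lowest of the 18 groups, and its part in the differences between chemicals with unlike controls was not tested. The share of all genes called in these tests was 1.67% for N-(1-naphthyl)ethylenediamine dihydrochloride, 0.973% for pentachloronitrobenzene, 0.0822% for 2,3-benzofuran, 0.459% for coumarin, 0.528% for 1,2-dibromoethane and 0.61% for benzene. It was 6.78% for N-methylolacrylamide, 0.617% for 2-chloromethylpyridine hydrochloride, 0.363% for 2,2-bis(bromomethyl)-1,3-propanediol, 0.452% for 4-nitroanthranilic acid, 0.48% for malathion and 0.521% for diazinon.

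Cyp1b1, the extrahepatic member of the family, rose with 1,5-naphthalenediamine and was called with no other chemical. Its log2 signal was 8.28, 8.50 and 8.62 in treated mice and 6.53, 6.55 and 7.14 in their controls. The groups did not overlap, as for 20.2% of all genes there, and the rise was 1.73 ± 0.30 (95% interval 1.14 to 2.33; limma adjusted p = 8.97e-05), or 3.32-fold. A second Cyp1b1 probe set, which was not used in the tests, averaged 6.30 in treated mice and 4.32 in controls, a difference of 1.98. The third differed by 0.02, and its mean over 70 arrays was 3.61, under the filter.
With N-(1-naphthyl)ethylenediamine dihydrochloride Cyp1b1 stood at 6.52, 6.62 and 7.02, within the range of the controls (-0.01 ± 0.30), although Cyp1a1 rose in the same animals. With pentachloronitrobenzene it stood at 6.88, 7.21 and 7.22 (0.37 ± 0.30; adjusted p = 1). The direct differences were called, 1.75 ± 0.30 against N-(1-naphthyl)ethylenediamine dihydrochloride (adjusted p = 5.42e-05) and 1.37 ± 0.30 against pentachloronitrobenzene (adjusted p = 0.00431). Without pentachloronitrobenzene animal 1-16 the second was 1.25 and no longer called (adjusted p = 0.056).
The change of Cyp1b1 with 1,5-naphthalenediamine was also larger than with coumarin, benzene, N-methylolacrylamide, 2,2-bis(bromomethyl)-1,3-propanediol, malathion and diazinon, by 1.37 to 2.25 log2 units. For 2,3-benzofuran, 1,2-dibromoethane, 2-chloromethylpyridine hydrochloride and 4-nitroanthranilic acid this difference was not called.

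4-Nitroanthranilic acid, the fourth highest group for Cyp1a1, was the second highest for Cyp1b1. Its 4 mice had 6.98, 7.20, 7.38 and 7.46, and the feed controls 6.38, 6.57, 6.70 and 6.71. The groups did not overlap, as for 3.21% of all genes there, and the difference of 0.67 ± 0.26 had an unadjusted p of 0.0114 and an adjusted p of 1. The second Cyp1b1 probe set differed by 0.40 and the third by -0.13, both with overlapping groups. Cyp1b1 was higher with 4-nitroanthranilic acid than with malathion by 1.16 ± 0.26 (limma adjusted p = 0.012; 0.706% of all genes called). It was higher than with 2,2-bis(bromomethyl)-1,3-propanediol by 1.19 (adjusted p = 0.108) and than with diazinon by 0.88 (adjusted p = 0.827), with 0% of genes called in both, 1236 and 624 genes having an unadjusted limma p under 0.05.
Across the other chemicals Cyp1b1 changes lay between -0.51 and 0.38, none called. The differences from the other chemicals fed in set 2 include their own changes against the same feed controls. These were -0.51 with 2,2-bis(bromomethyl)-1,3-propanediol, -0.49 with malathion and -0.21 with diazinon.

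**Figure D2:**
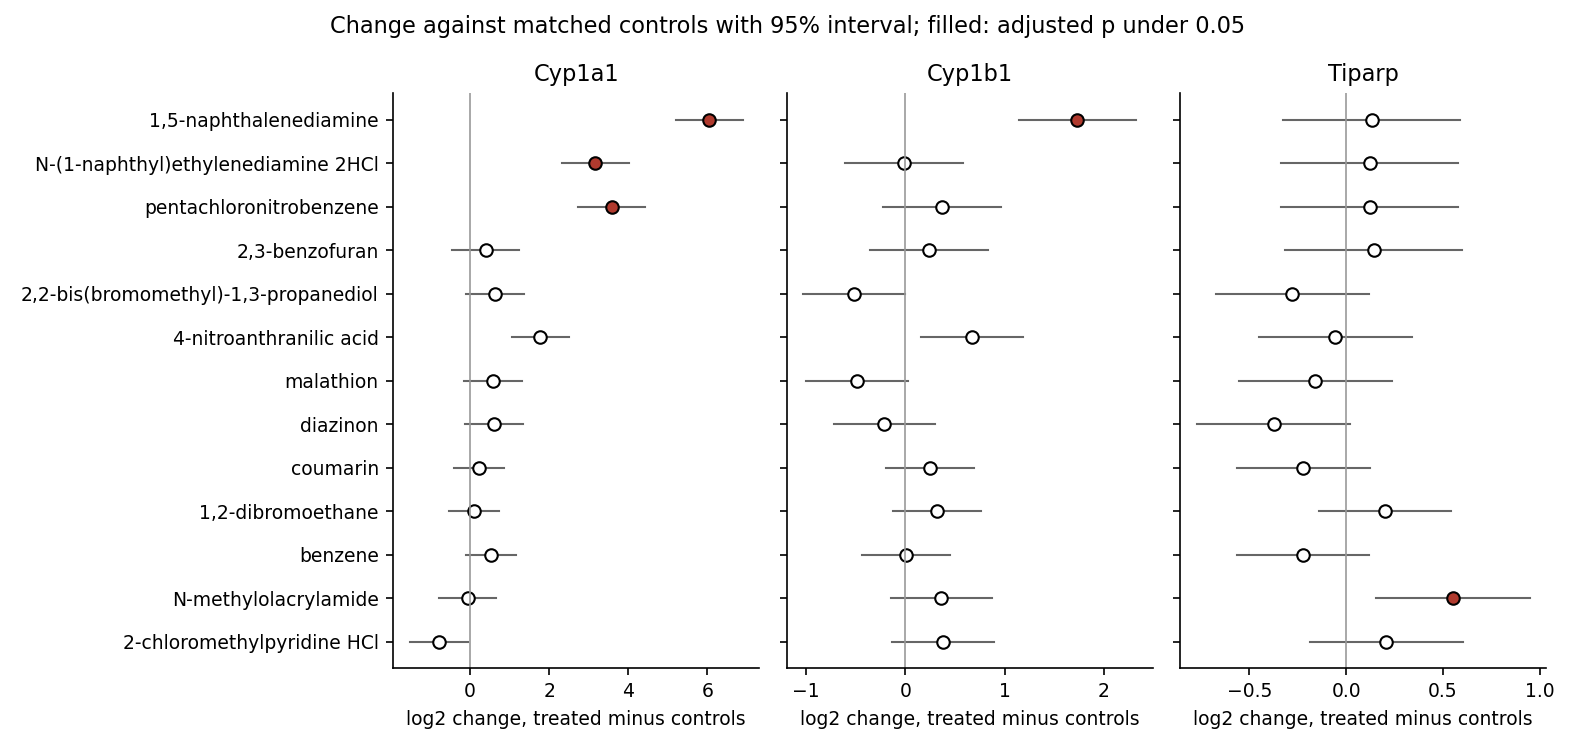
Log2 change of Cyp1a1, Cyp1b1 and Tiparp with each of 13 chemicals against controls of the same vehicle and set; points are limma estimates, bars 95% intervals, filled where the adjusted p was under 0.05, and each panel has its own scale. Cyp1a1 is filled for the 3 chemicals fed in set 1, Cyp1b1 for 1,5-naphthalenediamine and Tiparp for N-methylolacrylamide.

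Cyp1a2 was not called where Cyp1a1 rose. With 1,5-naphthalenediamine its log2 signal was 4.21, 4.22 and 4.30 against 3.96, 4.08 and 4.19 in the controls, a change of 0.17 ± 0.42 (adjusted p = 0.972). With the other 2 chemicals that raised Cyp1a1 the changes were 0.25 (pentachloronitrobenzene) and 0.29 (N-(1-naphthyl)ethylenediamine dihydrochloride). In all 3 comparisons, which share the same 3 controls, the treated animals lay above all controls by small steps, near the filter of 4.25. Groups did not overlap for 20.2% of all genes with 1,5-naphthalenediamine, 9.17% with pentachloronitrobenzene and 18.3% with N-(1-naphthyl)ethylenediamine dihydrochloride. No Cyp1a2 change was called with any of the 13 chemicals (adjusted p from 0.598 to 1).
Cyp1a2 group means were highest in the groups fed in set 2. They ran from 5.49 (feed controls) down to 4.98 (2,2-bis(bromomethyl)-1,3-propanediol), with coumarin next at 4.54. The mean of 12 hepatocyte markers in those feed groups ran from 6.43 (diazinon) to 7.04 (4-nitroanthranilic acid). The highest single values of Cyp1a2 stood apart from their group mates. The highest was 7.92 in diazinon animal 2-21, whose 3 group mates had 4.30, 4.37 and 5.22, and the second was 6.75 in feed control 2-43, with 4.89, 5.01 and 5.33 in the other controls. These were also the animals with the highest and the third highest mean of 12 hepatocyte markers, 8.99 and 8.12, where the lowest group mean was 4.51.
Over the 70 arrays, with group means removed, Cyp1a2 and the hepatocyte mean had Pearson r = 0.81 and Spearman rho = 0.72 (permutation within groups, two-sided, p = 1e-05 for both, the smallest the 100000 permutations can give; adjusted over 17 relations p = 8.5e-05 and 0.00017). Without the 2 arrays farthest from the median of Cyp1a2, r was 0.77, and on the 52 arrays of set 2 alone r was 0.81. The same relation for Cyp1a1 had r = 0.05 and rho = -0.03 (permutation p = 0.7 and 0.84; adjusted p = 0.79 and 1).
The genes whose values, relative to matched controls, were most like Cyp1a2 over 70 arrays were Cps1 (r = 0.76), Ambp (0.75), Serpinc1 (0.74), Mettl7b (0.72) and Bhmt (0.72). Cps1 is the first enzyme of the urea cycle, Serpinc1 is antithrombin, Ambp encodes the plasma protein bikunin with alpha-1-microglobulin, and Bhmt is a methyltransferase abundant in liver. Ambp is itself 1 of the 12 markers.

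**Figure D3:**
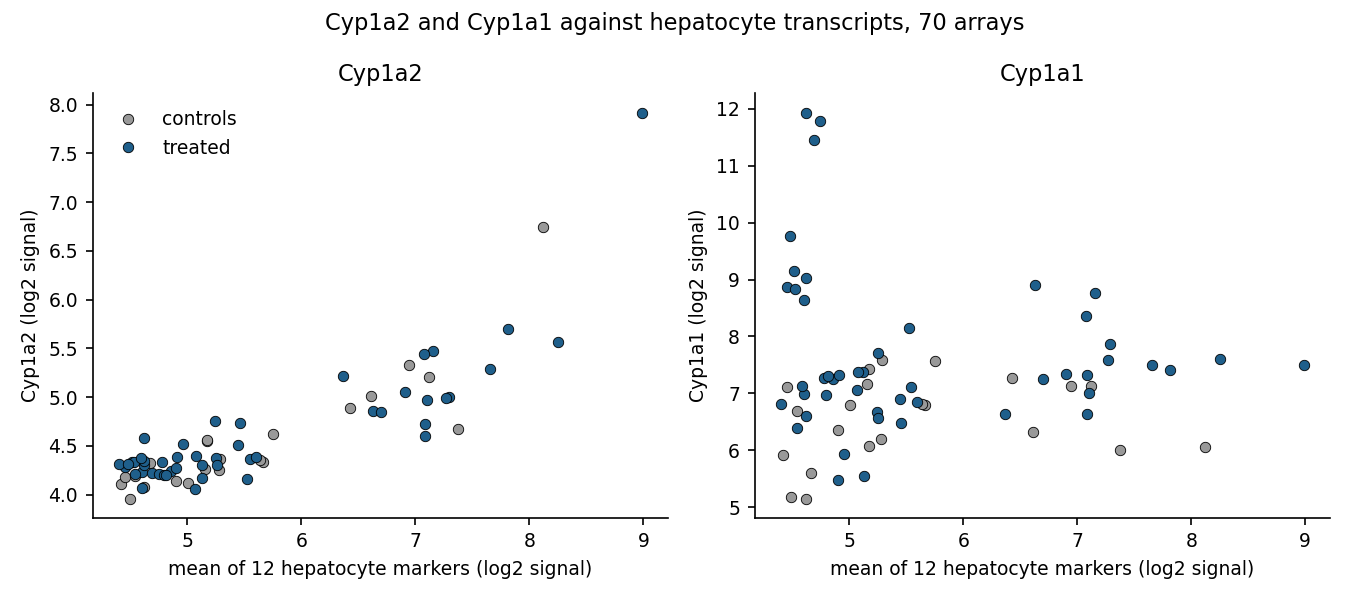
Log2 signal of Cyp1a2 (left) and Cyp1a1 (right) against the mean log2 signal of 12 hepatocyte markers, 1 point per animal, treated in blue and controls in grey. Cyp1a2 is highest, at 7.92 and 6.75, in animals with a marker mean of 8.99 and 8.12, while the Cyp1a1 values above 11 lie at marker means under 5.

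Neither feedback gene was called where Cyp1a1 rose. Ahrr lay between 3.15 and 3.78 in every animal, its probe set at the 9.4th percentile of all probe sets. In a fit without the filter its changes over 13 chemicals ran from -0.11 to 0.19, none called, with the largest in the pentachloronitrobenzene group (0.19 ± 0.10; unadjusted p = 0.0654).
Tiparp gave a clear signal and no call: 8.68, 8.86 and 8.96 with 1,5-naphthalenediamine against 8.49, 8.73 and 8.89 in controls (0.13 ± 0.23; adjusted p = 0.957). The changes with N-(1-naphthyl)ethylenediamine dihydrochloride and pentachloronitrobenzene were 0.12 each. The 95% interval for 1,5-naphthalenediamine ran from -0.33 to 0.59.

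Receptor and partner were not called in these 3 comparisons either. Ahr was 10.32, 10.36 and 10.39 with 1,5-naphthalenediamine and 10.49, 10.57 and 10.71 in controls (-0.23 ± 0.27; adjusted p = 0.915), without overlap, while its second probe set differed the other way, by 0.40. Arnt was 7.70, 8.00 and 8.05 against 8.08, 8.13 and 8.30 (-0.25 ± 0.11; unadjusted p = 0.025, adjusted p = 0.443), also without overlap, and -0.23 ± 0.11 with pentachloronitrobenzene (unadjusted p = 0.039, adjusted p = 1). Averaged over all 5 Arnt probe sets, the change with 1,5-naphthalenediamine was -0.03. The other Arnt probe sets, from bright to dim, differed by -0.18 (without overlap) and by 0.23, 0.06 and -0.01 (with overlap). The first of these differed by -0.14 with N-(1-naphthyl)ethylenediamine dihydrochloride and -0.21 with pentachloronitrobenzene, also without overlap. Groups without overlap made up 20.2% of all genes with 1,5-naphthalenediamine, 18.3% with N-(1-naphthyl)ethylenediamine dihydrochloride and 9.17% with pentachloronitrobenzene.
Counting all 6 members tested, 2 were called with 1,5-naphthalenediamine (1.11% of all genes), 1 with N-(1-naphthyl)ethylenediamine dihydrochloride and 1 with pentachloronitrobenzene (0.00685% each, which is Cyp1a1 itself), and 2 with N-methylolacrylamide (17.9%).
None was called with 2,3-benzofuran (4.07%), coumarin (4.09%), 1,2-dibromoethane (4.03%), benzene (0.0891%), malathion (2.19%) or diazinon (0.00685%). With 2-chloromethylpyridine hydrochloride, 2,2-bis(bromomethyl)-1,3-propanediol and 4-nitroanthranilic acid limma called no member and no gene (0%), while 1710, 1568 and 272 genes had an unadjusted p under 0.05.

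Ahr was called with N-methylolacrylamide and with no other chemical. The log2 signal of Ahr was 9.45, 9.63, 9.74 and 10.07 in treated mice and 7.79, 8.63, 9.06 and 9.13 in water controls. The groups did not overlap, as for 16.9% of all genes there, and the difference was 1.07 ± 0.24 (95% interval 0.59 to 1.54; limma adjusted p = 0.00284). Tiparp was 7.72, 8.08, 8.26 and 8.39 against 7.14, 7.47, 7.48 and 8.16, higher by 0.55 ± 0.20 (adjusted p = 0.0442) with overlapping groups. Cyp1a1 (-0.06 ± 0.36) and Cyp1b1 (0.36 ± 0.26) were not called in these mice.
Both calls were lost when low controls were left out. Without water control 2-124, the animal at 7.79, the Ahr difference was 0.78 (adjusted p = 0.0577), and without it and 2-121 it was 0.62 (adjusted p = 0.33), with Tiparp at 0.30 (adjusted p = 0.608). Tiparp also lost its call without a filter (adjusted p = 0.0534), with only the arrays of the groups compared (adjusted p = 0.105), without water control 2-121 or 2-127 and without treated animal 2-101, 2-102 or 2-106, its difference lying between 0.41 and 0.75 over all animals left out. The 2 other Tiparp probe sets differed by 1.06 and 0.34, and the second Ahr probe set by 0.38.
The other water gavage chemical, 2-chloromethylpyridine hydrochloride, used the same 4 controls. Ahr was 9.42, 9.44, 9.57 and 10.22 in its mice, above all controls (4.05% of genes did not overlap). The difference of 1.01 ± 0.24 had an unadjusted limma p of 7.48e-05 and an adjusted p of 0.351. Mean Ahr was 8.65 in the water controls, 9.72 with N-methylolacrylamide and 9.66 with 2-chloromethylpyridine hydrochloride. In the remaining groups of set 2 the mean lay between 9.36 and 9.78. The part of the low control mean in both differences was not tested.

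**Figure D4:**
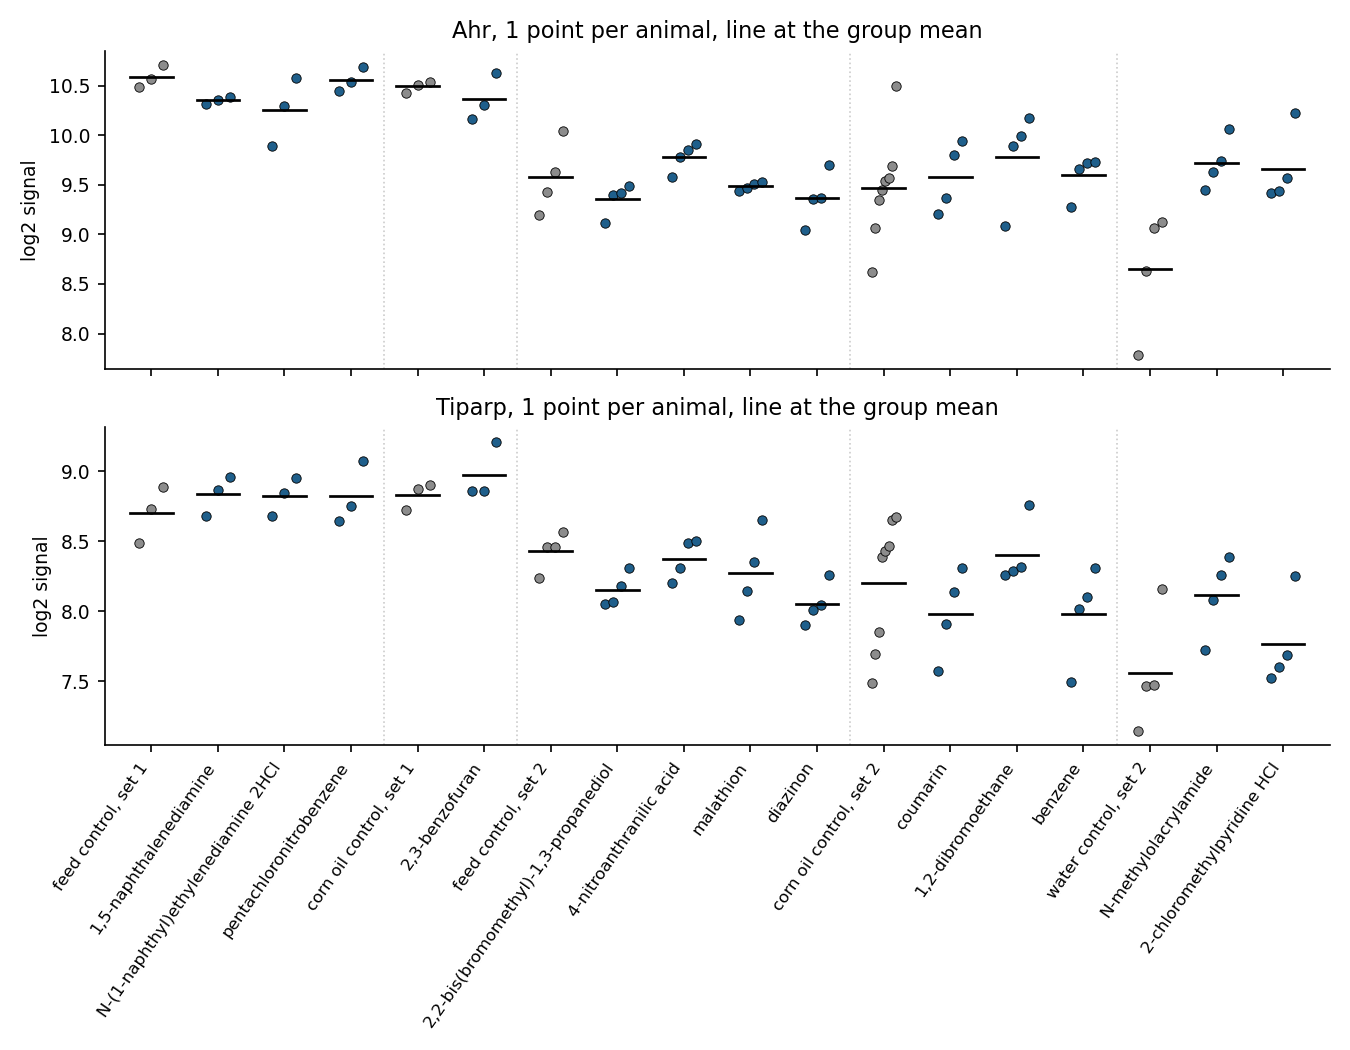
Log2 signal of Ahr (top) and Tiparp (bottom) in each of 70 animals by group, treated in blue and controls in grey, with a line at the group mean. The water controls of set 2 are lowest in both panels, with Ahr down to 7.79 in 1 animal, and the groups of set 1 are highest for Ahr.

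Baselines of the members differed between control groups, and each chemical was therefore set against controls of its own vehicle and set. Ahr averaged 10.59 in feed controls of set 1 and 9.58 in those of set 2, a difference of 1.01 ± 0.25 (limma adjusted p = 0.00133), and the corn oil controls of the sets differed by 1.02 ± 0.23 (adjusted p = 0.000153). Tiparp was higher in set 1 corn oil controls by 0.63 ± 0.19 (adjusted p = 0.00417; 0.0519 with only these groups' arrays in the fit). Many genes differed in the same contrasts, 41.5% for feed, where 3 of 6 members were called, and 55.5% for corn oil, where 2 were.
Cyp1a1 ran the other way, with a lower mean in feed controls of set 1 (5.68 against 6.70; -1.02 ± 0.39; adjusted p = 0.0317). That call was lost without control 1-27 (adjusted p = 0.171), 1-28 (0.176), 2-44 (0.119) or 2-45 (0.0921), the difference then lying at -0.76, -0.77, -0.83 and -0.88, and with only these groups' arrays in the fit (0.0565).
Cyp1a2 was lower in feed controls of set 1 than of set 2 (4.07 against 5.49; -1.42 ± 0.39; adjusted p = 0.00314), and 10 of 12 hepatocyte markers were lower in the same contrast. The mean of those markers was 4.49 to 4.62 in set 1 feed controls and 6.43 to 8.12 in set 2 feed controls, and its part in the Cyp1a2 difference was not tested.

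Within set 2 the controls also differed by vehicle. Water controls had less Ahr (-0.92 ± 0.24), Tiparp (-0.87 ± 0.20), Cyp1b1 (-0.79 ± 0.26) and Cyp1a2 (-1.03 ± 0.36) than feed controls, so 4 of 6 members were called where 33.7% of all genes were (adjusted p = 0.00224, 0.000728, 0.014 and 0.0243). The Cyp1b1 call was lost without water control 2-121 or 2-124 (adjusted p = 0.0758 and 0.12) and with only these groups' arrays in the fit (0.0532), and the Cyp1a2 call without feed control 2-43 (-0.61; adjusted p = 0.19), water control 2-124 (0.0631) or 2-127 (0.0512).
Corn oil controls had more Ahr (0.82 ± 0.20; adjusted p = 0.00348) and Tiparp (0.64 ± 0.17; adjusted p = 0.00576) than water controls, 2 of 6 members against 22.9% of genes. Both calls were lost without water control 2-124 (Ahr 0.53, adjusted p = 0.102; Tiparp 0.51, adjusted p = 0.0793) and with only these groups' arrays in the fit (adjusted p = 0.145 and 0.15). Between corn oil and feed controls of set 2, Cyp1a2 was lower with corn oil (-1.05 ± 0.31; adjusted p = 0.0468; 1 of 6 members and 3.46% of genes). That call was lost without feed control 2-43 (-0.63; adjusted p = 0.275), without feed control 2-42 or 2-45, without corn oil control 2-60, 2-93, 2-95, 2-97, 2-132 or 2-134 (adjusted p from 0.0576 to 0.0863 over these 8), with no filter (adjusted p = 0.0559), and with only these groups' arrays in the fit (0.144).
Between corn oil and feed controls of set 1 no member was called (0% of genes called by limma, 266 with an unadjusted p under 0.05). The difference between the sets in this contrast was called for no member (0% of genes, 743 with an unadjusted p under 0.05).

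Other genes reported as AhR targets were read from a list of 24, of which 17 were on the array and 12 above the filter. This list, like the others used here, was chosen with earlier results of these data known. Its counts beside the share of all genes are therefore descriptions and no test of enrichment. With 1,5-naphthalenediamine 4 of the 12 rose, where 1.11% of all genes were called: Nqo1, a quinone reductase, Gsta2, a glutathione transferase, Aldh3a1, an aldehyde dehydrogenase, and Ugdh, which makes UDP-glucuronic acid. Their median change over the 12 was 0.36, against -0.02 over all genes.
Nqo1 was 8.48, 8.57 and 8.94 in treated mice and 5.35, 5.53 and 5.70 in controls (3.14 ± 0.30; limma adjusted p = 2.03e-11). Gsta2 was 9.43, 9.53 and 9.58 against 7.35, 7.40 and 7.56 (2.08 ± 0.21; adjusted p = 6.67e-11). Aldh3a1 was 10.10, 10.11 and 10.21 against 7.72, 8.57 and 8.79 (1.78 ± 0.25; adjusted p = 6.92e-07). No treated animal overlapped with a control for any of these genes, as was so for 20.2% of all genes in this comparison. Ugdh did not overlap either (0.52 ± 0.11; adjusted p = 0.0019), and its call was lost without feed control 1-27 (adjusted p = 0.0581).

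None of the 12 was called with N-(1-naphthyl)ethylenediamine dihydrochloride or pentachloronitrobenzene, where Cyp1a1 was the only gene called (0.00685% of all genes with each). Nqo1 was 5.80, 5.92 and 5.95 with the first (0.36 ± 0.30; adjusted p = 0.801) and 5.98, 6.05 and 6.47 with the second (0.64 ± 0.30; adjusted p = 1), above all controls but by far less than with 1,5-naphthalenediamine. Gsta2 changed by -0.22 and -0.07 and Aldh3a1 by -0.46 and 0.09. The difference between 1,5-naphthalenediamine and N-(1-naphthyl)ethylenediamine dihydrochloride was 2.77 for Nqo1 (95% interval 2.16 to 3.38), 2.30 for Gsta2 (1.88 to 2.73) and 2.24 for Aldh3a1 (1.74 to 2.73), each called (adjusted p = 9.98e-10, 2.51e-12 and 1.07e-09). None of the 12 was called with 4-nitroanthranilic acid, where no gene at all was (0%), and Nqo1 changed by 0.57 and Aldh3a1 by 0.19.

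Other listed targets rose with 3 chemicals that left Cyp1a1 uncalled. The list holds reported targets, and whether the receptor acted on these genes here was not tested. With 2,3-benzofuran 3 of the 12 rose (4.07% of all genes were called): Nqo1 (2.11 ± 0.30; limma adjusted p = 7.58e-06), Aldh3a1 (1.56 ± 0.25) and Gsta2 (1.48 ± 0.21), while Cyp1a1 changed by 0.40 ± 0.42 and Cyp1b1 by 0.24 ± 0.30. With coumarin 5 rose (4.09% of all genes): Nqo1 (2.19 ± 0.23; adjusted p = 2.64e-10), Aldh3a1 (1.58 ± 0.19), Gsta2 (0.88 ± 0.16), Slc46a3 (0.56 ± 0.10) and Cyp2s1 (0.40 ± 0.10), while Cyp1a1 changed by 0.22 ± 0.31. With 1,2-dibromoethane the same 5 genes were called (4.03% of all genes), Nqo1 at 0.89 ± 0.23 (adjusted p = 0.0164) and Gsta2 at 0.81 ± 0.16 (adjusted p = 0.00141), while Cyp1a1 changed by 0.09 ± 0.31.
Coumarin and 1,2-dibromoethane share their 8 controls. The count with 1,2-dibromoethane fell to 3 without corn oil control 2-59 or 2-134, to 3 without treated animal 2-54 or 2-58, to 2 without 2-52 and to 0 with only the arrays of these groups. In the last setting Gsta2 with 2,3-benzofuran was uncalled too (adjusted p = 0.0629), as were Ugdh with 1,5-naphthalenediamine (0.065), Cyp2s1 with coumarin (0.233) and Nqo1 with malathion (0.0587).
Markers of several lung cell types moved in the same animals. With coumarin 6 of 10 club cell and 4 of 10 ciliated cell markers were higher, and 4 of 10 endothelial, 1 of 7 lymphocyte and 1 of 9 alveolar macrophage markers were lower (4.09% of all genes called). With 1,2-dibromoethane 3 of 10 club cell and 3 of 10 ciliated cell markers were higher, and 4 of 9 alveolar type II, 2 of 10 type I, 1 of 10 fibroblast and 4 of 9 alveolar macrophage markers were lower (4.03%). With 2,3-benzofuran 1 club cell and 2 ciliated cell markers were higher, and 3 fibroblast markers and 1 type I marker were lower, each of 10 (4.07%). With 1,5-naphthalenediamine 2 club cell markers were higher and 1 lower, and 1 alveolar macrophage marker was higher and 1 lower (1.11%). With malathion 1 club cell marker was higher and 3 were lower, 2 lymphocyte markers and 1 endothelial marker were higher and 1 hepatocyte marker was lower (2.19%). Their part in the changes of the listed targets was not tested. Malathion raised Nqo1 alone of the 12 (1.25 ± 0.26; adjusted p = 0.00456), which was lost without treated animal 2-38 (0.99; adjusted p = 0.0558).

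**Figure D5:**
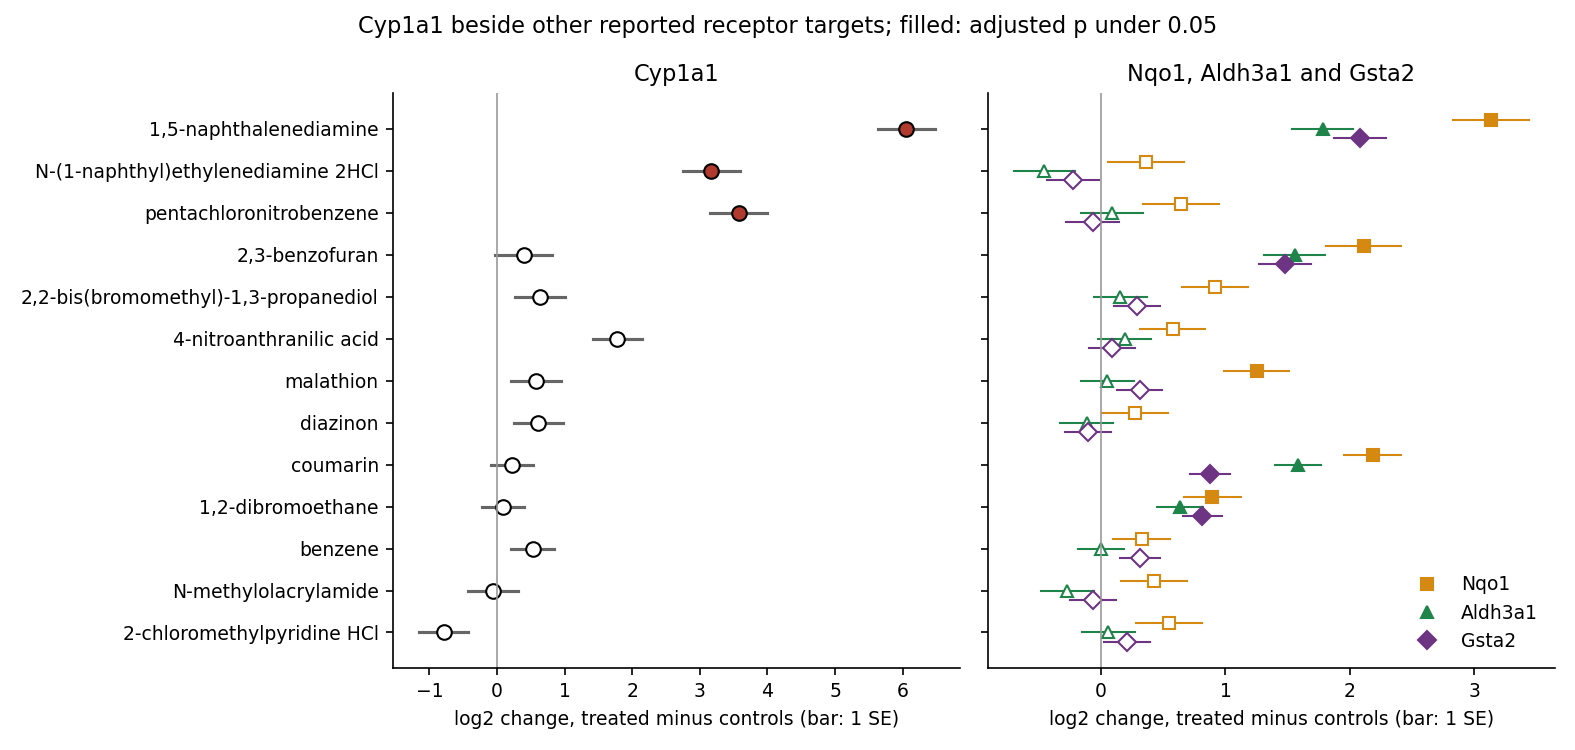
Log2 change with each of 13 chemicals against matched controls for Cyp1a1 (left) and for Nqo1, Aldh3a1 and Gsta2 (right), bars 1 SE, filled where the adjusted p was under 0.05. With 1,5-naphthalenediamine all 4 genes are filled, with pentachloronitrobenzene Cyp1a1 alone, and with coumarin Nqo1, Aldh3a1 and Gsta2 but not Cyp1a1.

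With N-methylolacrylamide 3 of the 12 were called, a share near that of all genes (17.9%). Nfe2l2, the transcription factor NRF2 of the antioxidant response, was higher by 0.55 ± 0.17, and Xdh, xanthine dehydrogenase, and Slc7a5, an amino acid transporter, were lower (-0.62 ± 0.18 and -0.61 ± 0.15). None of the 3 was called without water control 2-124, where Nfe2l2 differed by 0.56 (adjusted p = 0.0772), Xdh by -0.63 (adjusted p = 0.0607) and Slc7a5 by -0.46 (adjusted p = 0.0767). The Nfe2l2 call was also lost without water control 2-121 or 2-127 or treated animal 2-102 or 2-106, and with the mean over its probe sets (0.36; adjusted p = 0.135).
Among 15 tested chaperones and cofactors of the receptor, 6 were called with N-methylolacrylamide, against 17.9% of all genes: Hsp90aa1, the inducible cytosolic HSP90 (1.06 ± 0.29), Ncoa2, a coactivator (1.00 ± 0.20), Rb1 (0.85 ± 0.24), Cul4b (0.71 ± 0.21) and Ep300 (0.50 ± 0.14) were higher and Relb was lower (-0.46 ± 0.15). Without water control 2-124, Hsp90aa1 (1.10; limma adjusted p = 0.049) and Ncoa2 (0.79; adjusted p = 0.0445) were still called and the other 4 were not. Without 2-121 Ncoa2, Rb1 and Ep300 were, without 2-127 all but Relb were, and without both 2-121 and 2-124, a choice made after the data were seen, none was (adjusted p from 0.276 to 0.478). With those 2 controls left out the difference was 0.89 for Hsp90aa1, 0.66 for Ncoa2, 0.49 for Rb1, 0.43 for Cul4b, 0.37 for Ep300 and -0.31 for Relb. The 5 genes that were higher were also lower in water than in feed controls, from -0.68 for Ep300 to -1.32 for Hsp90aa1, all called where 33.7% of all genes were. None of the 15 was called with 1,5-naphthalenediamine, N-(1-naphthyl)ethylenediamine dihydrochloride or pentachloronitrobenzene (1.11%, 0.00685% and 0.00685% of all genes called). Hsp90aa1 was lower with malathion (-1.04 ± 0.29; adjusted p = 0.0399) and Src lower with coumarin (-0.47 ± 0.14; adjusted p = 0.0349).
Of 6 tested enzymes that make AhR ligands from tryptophan none was called with any chemical. Of 14 tested targets of HIF, the other well-known partner of ARNT, Ldha alone was called with 1,5-naphthalenediamine (0.33 ± 0.09; adjusted p = 0.0279; 1.11% of all genes). Lower were Vegfa with 2,3-benzofuran (4.07%), Vegfa and Egln1 with 1,2-dibromoethane (4.03%), and Slc2a1 and Egln1 with N-methylolacrylamide (17.9%). Pfkfb3 was higher with malathion (2.19%), and none of the 14 was called with the remaining chemicals. Of 6 tested targets of other xenobiotic receptors, Alas1 was called with coumarin (0.60 ± 0.13) and Abcb1a with N-methylolacrylamide (1.14 ± 0.26; 1.00 and adjusted p = 0.264 without 2-121 and 2-124), and none with the chemicals that raised Cyp1a1.

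Among animals of 1 group, members did not all rise and fall together. With group means removed, 3 of 15 pairs of members passed over 70 arrays by Pearson's r: Cyp1b1 with Ahr (r = 0.69, rho = 0.56; permutation within groups, two-sided, p = 1e-05 and 6e-05, adjusted p = 8.5e-05 and 0.00051), Tiparp with Ahr (r = 0.50, rho = 0.45; permutation p = 0.0019 and 0.0011, adjusted p = 0.011 and 0.0063) and Cyp1b1 with Tiparp (r = 0.43, rho = 0.32; permutation p = 0.0097 and 0.025, adjusted p = 0.041 and 0.071). Without the 2 arrays farthest from the median of the first gene, r was 0.61, 0.39 and 0.31.
Cyp1a1 with Cyp1b1 did not pass within groups (r = -0.13, rho = -0.15; permutation p = 0.34 and 0.28, adjusted p = 0.53 and 0.5). On the 52 arrays of set 2 alone 5 pairs passed, with Cyp1a1 against Ahr (r = -0.43, rho = -0.47; permutation p = 0.0069 and 0.003, adjusted p = 0.029 and 0.014; r = -0.38 without the 2 farthest arrays) and Cyp1a1 with Arnt (r = 0.43, rho = 0.39; permutation p = 0.017 and 0.019, adjusted p = 0.048 and 0.063) added, while over all 70 arrays these had r = -0.32 and 0.37 (adjusted p = 0.059 for both). All members of an animal come from 1 array, so they share its RNA and its scaling.

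The genes whose values relative to matched controls were most like those of Cyp1a1 over 70 arrays were Srxn1 (r = 0.66), Gstp1 (0.64), Edem1 (0.63), Psmb5 (0.63), Slc3a2 (0.61), Gclm (0.61), Zfp128 (0.61), Sqstm1 (0.60), Hmox1 (0.60) and Gm6277 (0.59). Srxn1 is sulfiredoxin, Gclm a subunit of the enzyme that starts glutathione synthesis, and Hmox1 heme oxygenase. The group means were left in, so the 3 mice given 1,5-naphthalenediamine carry much of this. Without them the first of the list were Gm6277 (0.61), Gm33301 (0.58) and Xpnpep2 (0.57), and of the first 10 only Gm6277 was kept. For Cyp1b1 the nearest genes were Ugdh (0.72), Idh1 (0.70) and Frk (0.70), for Tiparp Eif5a2 (0.86) and Ppp4r2 (0.85), for Ahr Pdcd4 (0.91) and Rab14 (0.91) and for Arnt Ccnj (0.68).

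By lung tumour class, with 1 value per chemical, no member was called between the 7 positive and the 6 negative chemicals. The Cyp1a1 change averaged 1.12 (from -0.06 to 6.05) in positive and 1.49 (from -0.79 to 3.58) in negative chemicals, a difference of -0.36 ± 0.94 (limma adjusted p = 0.948). Cyp1b1 differed by 0.23 ± 0.28 (0.34 against 0.12; adjusted p = 0.893). No gene passed this test (0% of 14593), and the unadjusted limma p of the 6 members ran from 0.434 to 0.99. The chemical with the highest Cyp1a1 is classed as positive, and the next 3, pentachloronitrobenzene, N-(1-naphthyl)ethylenediamine dihydrochloride and 4-nitroanthranilic acid, are classed as negative.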

How the data were processed

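RNA from the right lung lobe of 70 mice was hybridised to Affymetrix mouse whole-genome arrays, 1 per animal. The authors deposited log2 values for 45101 probe sets, running from 2.472 to 14.526; the steps that summarised and normalized them are not stated in the labels or the table, and no raw intensities were used here. Tests excluded 64 control probe sets. The platform's annotation gave 34945 probe sets 1 symbol, 932 several and 9160 none, and symbols were updated through Entrez identifiers (18032 genes matched). A gene with several probe sets was represented by the brightest one.

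Genes above the 30th percentile of these means (log2 4.25) entered a limma 3.58.1 fit (R 4.3.3) of 18 group means over 70 arrays, with contrasts against controls of the same vehicle and set, and Benjamini-Hochberg adjustment within each contrast. All adjusted p-values not called permutation values are limma's. The fit was tested on simulated data made from these arrays: for 1,5-naphthalenediamine, 56.7% of genes changed 1.5-fold, 82.1% changed 2-fold and 97% changed 4-fold were recovered among 14593. Of the genes called, 3.09% were false there and 8.08% in the same simulation for 4-nitroanthranilic acid. The simulated noise was independent between genes, so shifts shared by many genes of an array were not covered. The number of arrays limits the precision, most of all in set 1 with 3 per group.

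Genes named in the text are the members, up to 4 called genes per list and chemical with the largest changes, and the genes most like each member (10 for Cyp1a1, up to 5 for each other member). Cyp2s1 with coumarin and 1,2-dibromoethane, and Ep300 and Relb with N-methylolacrylamide, were named beyond that rule, after their values were seen. The members and the lists were chosen with earlier results of these data known. Alternatives were the filter, the mean over probe sets, a second quantile normalization, a fit to the compared groups' arrays alone, a trended robust variance, the amount of RNA solution in the labels, and each animal left out in turn. Figures and permutations used Python 3.11.15, scipy 1.17.1 and matplotlib 3.10.9.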

Additional observations from a re-analysis of the deposited data

Results flagged for a closer look

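For each of the 7 genes, each group of 4 or 8 animals was examined for single animals far from the rest. Of these 84 sets of values, 4 had one by Dixon's criterion, and chance alone gives about 1 in 20. The groups of set 1, with 3 animals each, were not examined. Ahrr was 3.71 in corn oil control 2-95, with the other 7 controls between 3.26 and 3.46. Tiparp was 8.76 in 1,2-dibromoethane animal 2-52, with its group mates between 8.26 and 8.32. Ahr was 9.28 in benzene animal 2-90, with the others between 9.66 and 9.73. Arnt was 8.37 in 1,2-dibromoethane animal 2-56, with the others at 7.91 to 7.92, and this array had the highest 3′ minus 5′ difference of all 70, 0.989; its part in the Arnt value was not tested.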

How the results depend on the processing

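Of 1086 values recomputed under an alternative, 990 stayed the same. For a change this means that direction and side of the threshold were kept, and for a count of calls that it stayed near the main count. Reversed were Cyp1a1 with 1,2-dibromoethane (0.09) to -0.078 with the RNA 3′ minus 5′ difference as a covariate and -0.14 to 0.49 with 1 animal left out, and Cyp1a1 with N-methylolacrylamide (-0.06) to 0.11 without water controls 2-121 and 2-124 and -0.34 to 0.18 with 1 animal left out. By tumour class Cyp1a1 (-0.36) became 1.40 over the feed chemicals alone and 0.055 without pentachloronitrobenzene. None of these was called, and the cause was not tested. With the RNA covariate Cyp1a1 with 4-nitroanthranilic acid was called (1.88). Member calls over 13 chemicals numbered 6, with 5 to 7 under the alternatives and 4 to 7 with 1 animal left out. Genes called ran, over alternatives and then over animals left out, from 141 to 293 and 80 to 130 for 1,5-naphthalenediamine (162), 9 to 645 and 47 to 1331 for 2,3-benzofuran (594), 146 to 686 and 450 to 678 for coumarin (597), 10 to 652 and 351 to 750 for 1,2-dibromoethane (588), 1 to 2874 and 299 to 3979 for N-methylolacrylamide (2605), 178 to 374 and 77 to 299 for malathion (320) and 0 to 14 and 5 to 13 for benzene (13). For 2,2-bis(bromomethyl)-1,3-propanediol (0) they reached 88 and 8, for N-(1-naphthyl)ethylenediamine dihydrochloride (1) 4 and 9, and for diazinon (1) 3 and 2. No paired analysis was possible because the replicate labels are animal identifiers and the groups share none.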
